A study of Homo sapiens with 4 samples.

Results

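The anti-apoptotic members of the BCL2 family are the proteins that hold the mitochondrial route to cell death in check, and 6 of their genes were followed here: BCL2, BCL2L1, BCL2L2, MCL1, BCL2A1 and BCL2L10. They were taken from the array by gene symbol, as every probe set (a group of short probes for 1 transcript) whose platform annotation names one of these genes and no other. That gave 19 of 54613 probe sets, or 6 of 19775 genes named alone by a probe set. Each value is a signal intensity on a linear scale, measured in Raji, an established Burkitt lymphoma line of B-cell origin that carries Epstein-Barr virus. A DLEU1-downregulated clone, made with the designer nucleases called TALENs against the long non-coding RNA gene DLEU1, was compared with a wild-type control clone on 2 arrays each. Each genotype is 1 clone, the treatment field of the labels carries the same TALEN wording for all 4 arrays, and the labels do not say whether the duplicates were separate cultures, so the p-values speak for the variation among these 4 arrays alone, and that variation may be technical. In bulk RNA, fewer cells of a type and less RNA per cell cannot be told apart.

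Anti-apoptotic BCL2 proteins carry a groove on their surface that binds a short helix, the BH3 domain, of their death-promoting relatives. By this binding they restrain BAX and BAK1, which otherwise open the outer mitochondrial membrane and release cytochrome c, and they sequester the BH3-only proteins that set BAX and BAK1 free. In B cells the members are used at different stages: MCL1 is needed in germinal centre cells, BCL2 is held low there by the repressor BCL6, and BCL2A1 and BCL2L1 are induced by NF-kB, for example after CD40 is engaged.

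DLEU1 itself read 523.7 and 616.9 on the arrays of the downregulated clone, against 1363.4 and 1023.8 on the control arrays, in its probe set 205677_s_at. It fell by 1.04 ± 0.24 on the log2 scale (SE; limma adjusted p = 0.00032), a call lost as deposited without DLEU1-downregulated replicate 1 (adjusted p = 0.218) or replicate 2 (0.14). On quantile values it fell by 1.38 (adjusted p = 2.9e-06) and passed without each array. Every fit without 1 array sets a lone array against a pair, so the spread comes from that pair and from what limma shares across probe sets, and the lone array is assumed to vary likewise. Such fits are therefore a weak check of stability. The 2% trimmed mean intensity was 172 and 197 on the DLEU1-downregulated arrays, against 163 and 131 on the control arrays, so the deposited arrays share no common scale. Changes are therefore given on the values as deposited, where the median log2 change over all 32768 tested probe sets was 0.16, and again after quantile normalization, where it was 0.01. Markers of B cells had summed intensities of 13540 to 15410 on the DLEU1-downregulated arrays, against 12270 to 14590 on the control arrays, over 5 of 6 markers measured. The sums for T cell, NK cell, monocyte and epithelial markers lay between 31.6 and 77.1 on the DLEU1-downregulated arrays and between 34.7 and 70 on the control arrays. Those of 3 fibroblast markers were 101.4 to 144, against 165.1 to 173.9, and their part in the results below was not tested.

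The 6 genes did not move together. BCL2A1 and BCL2L1 rose in the DLEU1-downregulated clone. For MCL1, 3 of 6 probe sets fell, while the brightest did not pass. BCL2, BCL2L2 and BCL2L10 had no probe set past the threshold on the values as deposited. By the mean of each gene's tested probe sets, BCL2L1 rose (log2 change 0.69, limma adjusted p = 0.0117) and MCL1 did not pass (-0.56, adjusted p = 0.0719). Of the 19 probe sets, 18 were bright enough to be tested, and 3 rose while 3 fell (limma adjusted p under 0.05 on log2 of the value plus 16). Over all tested probe sets 17.2% rose and 5.11% fell, and 22.3% changed in either direction (33.8% after quantile normalization). After quantile normalization 3 member probe sets rose and 6 fell, where 17% and 16.7% of all tested probe sets did. The median log2 change of the 18 tested member probe sets was -0.03 as deposited and -0.02 after quantile normalization.

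**Figure D1:**
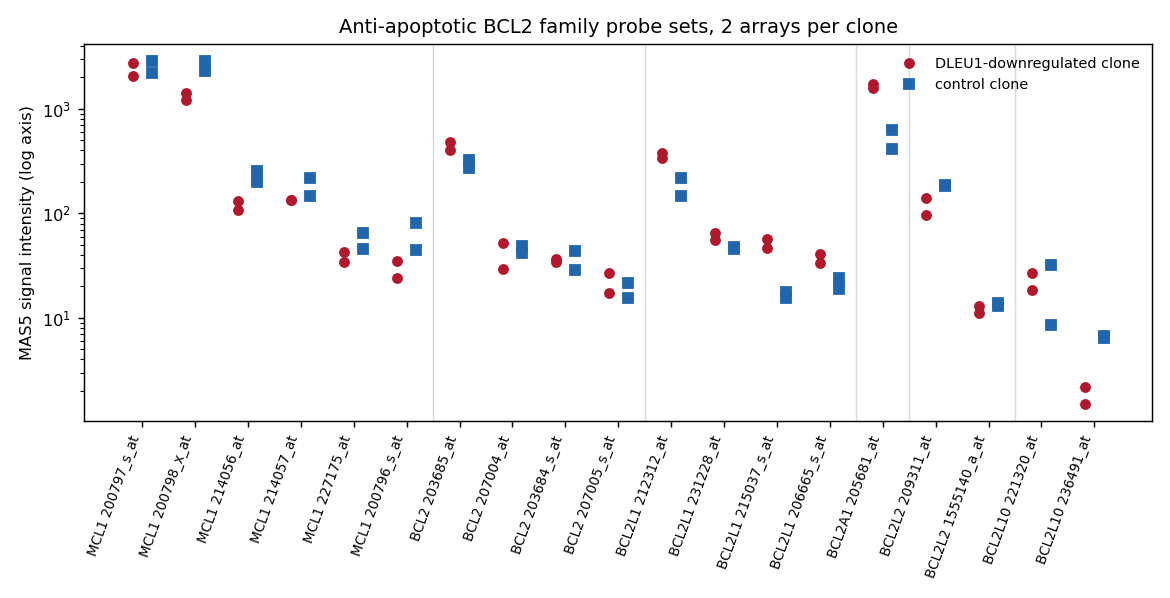
Signal intensity (log axis) of the 19 probe sets of the 6 genes on each array, with circles for the 2 DLEU1-downregulated arrays and squares for the 2 control arrays. The circles of BCL2A1 lie at 1575.4 and 1716.2, above its squares at 634 and 416.7, while those of MCL1 200798_x_at lie at 1225.3 and 1435.1, below its squares at 2865.6 and 2284.9.

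BCL2A1, also called BFL1 or A1, is a short-lived inhibitor of apoptosis of blood cells and a target of NF-kB. Its 1 probe set, 205681_at, read 1575.4 and 1716.2 on the DLEU1-downregulated arrays, against 634 and 416.7 on the control arrays. Both arrays of the downregulated clone were thus above both control arrays, with means of 1646 ± 99.6 and 525.4 ± 154 (SD, n = 2 each), or 3.13-fold higher in the downregulated clone. On the log2 scale BCL2A1 rose by 1.65 ± 0.24 (SE; adjusted p = 7.14e-10 by limma). Quantile normalization left a rise of 1.30 (adjusted p = 1.42e-05). This rise lay above 99.5% of the changes of all tested probe sets as deposited, and above 99.2% on quantile values. Permuting the arrays in an exact two-sided test gave p = 0.333, the smallest that the 6 assignments of 4 arrays allow, and the same holds for every member whose groups did not overlap. The rise passed in each of the 20 alternatives tried, where the log2 change lay between 1.17 and 1.94. One of them, averaging over probe sets, could not alter the change of a gene with 1 probe set.

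BCL2L1 encodes BCL-XL, the long-lived survival protein, and by alternative splicing the death-promoting short form BCL-XS. All of its 4 probe sets were tested, and 2 rose on both scales. The brightest, 212312_at, read 335.4 and 379.3 on the DLEU1-downregulated arrays, against 218.8 and 146.4 on the control arrays. The groups did not overlap, and the means were 357.4 ± 31 and 182.6 ± 51.2 (SD, n = 2 each), or 1.96-fold higher in the downregulated clone. The rise was 0.93 ± 0.26 on the log2 scale (SE; limma adjusted p = 0.00341), or 0.63 on quantile values (adjusted p = 0.00233). As deposited the call was lost without DLEU1-downregulated replicate 1 (1.02, adjusted p = 0.163), without DLEU1-downregulated replicate 2 (0.85, 0.351) and without control replicate 2 (0.67, 0.0828). On quantile values it passed in each of the 4 fits without 1 array, with log2 changes of 0.52 to 0.75.

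A dimmer BCL2L1 probe set, 215037_s_at, read 57 and 46.5 on the DLEU1-downregulated arrays, against 15.4 and 17.7 on the control arrays, and rose by 1.05 on the log2 scale (adjusted p = 0.00134). Its control values lie under the median intensity of their arrays (22.6 and 18.4), and since no detection calls were used, whether they exceeded background was not tested. This call was lost without DLEU1-downregulated replicate 1 (0.94, adjusted p = 0.106) and with no filter on dim probe sets (0.0544). On quantile values the rise was 1.02 (adjusted p = 0.00794), and it too was lost without DLEU1-downregulated replicate 1 (0.85, 0.0916). The other 2 did not pass on either scale. Probe set 206665_s_at, which the annotation ties to the transcript of the short form, read 33.5 and 40.9 against 24.2 and 19.1 (log2 change 0.50, adjusted p = 0.189). Probe set 231228_at read 55.6 and 65.6 against 45.7 and 47.6 (0.29, adjusted p = 0.466). All 4 had both DLEU1-downregulated arrays above both control arrays as deposited, as 40.8% of all tested probe sets did, and 3 of 4 after quantile normalization, against 33.5%. Since the 4 read 1 gene on the same arrays, they are not independent of each other.

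The start regions of the 2 genes that rose are shown for their sequence, since NF-kB, STAT factors and BCL6 are known regulators of this family. Each is the 300 bases from RefSeq on GRCh38.p14 that run from 250 bases before the gene start to 50 after it, on the minus strand, at chr15:79971147-79971446 for BCL2A1 and chr20:31723914-31724213 for BCL2L1. Capitals mark a match to one of 5 motifs searched on both strands.
BCL2A1: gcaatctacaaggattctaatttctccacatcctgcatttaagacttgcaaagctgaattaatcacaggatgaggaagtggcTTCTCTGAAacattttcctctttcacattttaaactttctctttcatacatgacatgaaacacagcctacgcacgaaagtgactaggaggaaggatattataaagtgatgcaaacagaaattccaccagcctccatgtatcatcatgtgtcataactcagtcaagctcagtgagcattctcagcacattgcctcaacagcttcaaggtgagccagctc
BCL2L1: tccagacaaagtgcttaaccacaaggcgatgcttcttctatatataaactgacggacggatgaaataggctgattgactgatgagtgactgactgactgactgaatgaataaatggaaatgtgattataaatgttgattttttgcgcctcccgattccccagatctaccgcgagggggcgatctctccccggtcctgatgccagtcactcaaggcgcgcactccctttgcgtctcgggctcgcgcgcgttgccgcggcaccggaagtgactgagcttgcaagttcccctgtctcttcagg

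The motifs were the palindrome TTCNNNGAA that STAT factors and BCL6 share, the AP-1 site TGANTCA, the cyclic AMP response element TGACGTCA, the E-box CACGTG of MYC, and the NF-kB consensus. The BCL2A1 window held 1 match, TTCTCTGAA of the STAT and BCL6 palindrome, which begins at position -168 from the gene start. Of 35116 promoters of the same length, 7.66% hold that palindrome, 7.71% the AP-1 site, 1.85% the cyclic AMP response element, 7.26% the E-box and 11.3% the NF-kB consensus. No other match was found in the BCL2A1 window, in either BCL2L1 window (a second start lies at chr20:31722819-31723118) or in that of BCL2 (chr18:63319720-63320019), which says only that these letters are not in these windows. The share of G and C was 41% for BCL2A1, 52% and 61.3% for the BCL2L1 windows and 70.7% for BCL2.

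MCL1 is a short-lived survival protein that binds BAK1 and the BH3-only proteins BCL2L11 and PMAIP1, and it was measured by 6 probe sets, all of them tested. They disagreed in size. The brightest, 200797_s_at, read 2059.4 and 2731.5 on the DLEU1-downregulated arrays, against 2843.3 and 2191.7 on the control arrays, and the groups overlapped. Its log2 change was -0.07 ± 0.20 on the deposited values (SE; limma adjusted p = 0.849). On quantile values it fell by 0.44 (adjusted p = 0.00168), with no overlap.

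The next brightest MCL1 probe set, 200798_x_at, read 1225.3 and 1435.1 on the DLEU1-downregulated arrays, against 2865.6 and 2284.9 on the control arrays. The groups did not overlap, and the means were 1330 ± 148 and 2575 ± 411 (SD, n = 2 each), so that control was 1.94-fold higher. It fell by 0.94 ± 0.21 on the log2 scale (SE; adjusted p = 0.000218), or by 1.30 on quantile values (adjusted p = 1.08e-06). The suffix _x_at marks a probe set that may also bind other transcripts. As deposited the call was lost without DLEU1-downregulated replicate 1 (-0.83, adjusted p = 0.203) or replicate 2 (-1.05, 0.114), whereas on quantile values it passed in each of the 4 fits without 1 array (-1.32 to -1.28).

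Among the dimmer MCL1 probe sets, 214056_at read 107 and 132.3 on the DLEU1-downregulated arrays, against 256.2 and 200.3 on the control arrays. It fell by 0.85 (adjusted p = 0.00823) as deposited, a call lost without DLEU1-downregulated replicate 1 (adjusted p = 0.358) or replicate 2 (0.223), while on quantile values it fell by 1.12 (0.000113). Probe set 200796_s_at read 34.7 and 24.2 against 81.7 and 45.1, and fell by 0.78 (adjusted p = 0.0185), a call lost without DLEU1-downregulated replicate 1 (0.093), replicate 2 (0.432) or control replicate 1 (0.278), and with no filter on dim probe sets (0.183). On quantile values that probe set fell by 0.85 (adjusted p = 0.0197), a call lost without DLEU1-downregulated replicate 2 (-0.63, 0.14) or control replicate 1 (-0.64, 0.104). The other pair did not pass as deposited. Probe set 214057_at read 133.7 and 134.1 against 219.1 and 146.3 (log2 change -0.38, adjusted p = 0.303), but on quantile values it fell by 0.65 (adjusted p = 0.00553), a call lost without DLEU1-downregulated replicate 2 (-0.56, 0.0514). Probe set 227175_at read 33.9 and 43.1 against 64.7 and 45.2 (-0.37, adjusted p = 0.322; -0.48 on quantile values, 0.0772).

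Groups that did not overlap were seen in 12 of the 18 tested member probe sets on each scale, where 58.8% of all tested probe sets had them as deposited and 66% after quantile normalization. In 5 of the 6 MCL1 probe sets both DLEU1-downregulated arrays thus lay below both control arrays, an arrangement that 17.9% of all tested probe sets had, and in 6 of 6 after quantile normalization, against 32.5%. These 6 probe sets read 1 gene on the same arrays, so they are not independent of each other. The log2 changes ran from -0.94 to -0.07 as deposited. Both bright probe sets can be set against each other within an array, where a common array scale cancels. Relative to the control mean, the log2 ratio of 200798_x_at to 200797_s_at was -0.78 and -0.96 on the DLEU1-downregulated arrays, against -0.02 and 0.02 on the control arrays. Their changes thus differed by -0.87 as deposited and by -0.86 after quantile normalization, so the 2 probe sets did not report the same change in MCL1.

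**Figure D2:**
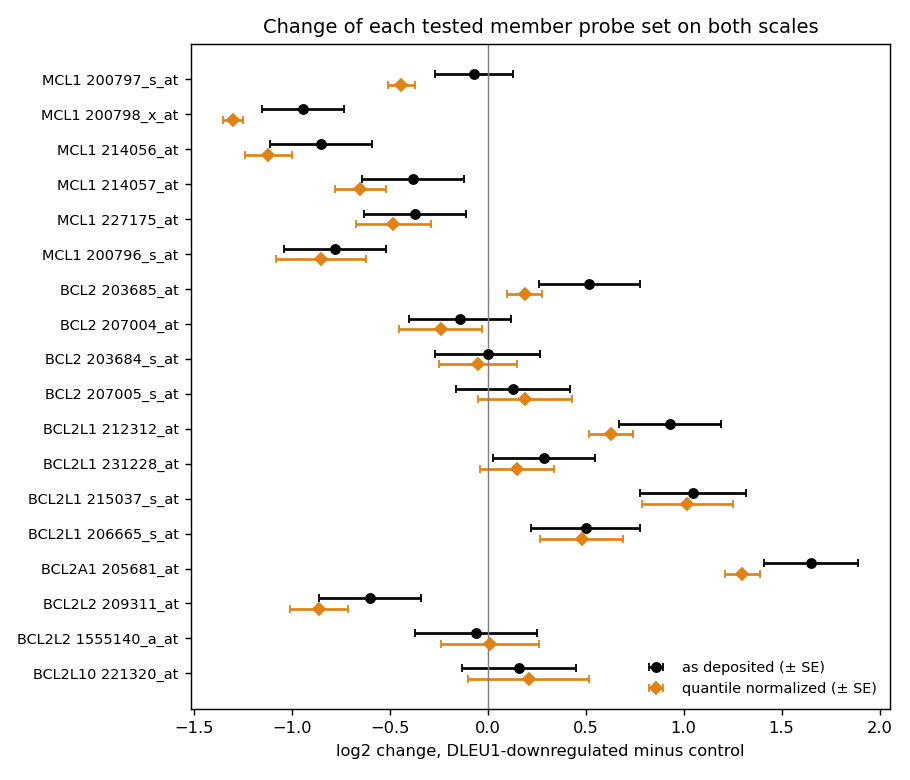
Log2 change (horizontal axis, DLEU1-downregulated minus control, bars ± SE) of the 18 tested member probe sets, with circles for the values as deposited and diamonds after quantile normalization. The 6 MCL1 probe sets lie from -0.94 to -0.07 as deposited, and the 4 of BCL2L1 from 0.29 to 1.05.

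BCL2 is the founding member of the family, the gene joined to the immunoglobulin locus in follicular lymphoma. It was also named as a target of the microRNAs miR-15a and miR-16 in human leukaemia cells, and these lie in the DLEU2 gene beside DLEU1. Their mature sequences from RefSeq (GRCh38.p14, minus strand, chr13:50049167-50049188 and chr13:50049027-50049048) are shown because they share 1 seed, bases 2 to 8, given in capitals, through which a target is recognised.
hsa-miR-15a-5p: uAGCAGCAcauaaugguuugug
hsa-miR-16-5p: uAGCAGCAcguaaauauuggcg

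The mature microRNAs were not among the values used here. In its brightest probe set, 216870_x_at, DLEU2 read 805 and 932.2 on the DLEU1-downregulated arrays, against 1007.1 and 904.7 on the control arrays, and the groups overlapped (log2 change -0.14, adjusted p = 0.741). On quantile values this probe set fell by 0.49 (adjusted p = 0.000733), and 1 of the other 6 DLEU2 probe sets rose (242854_x_at, 0.69, adjusted p = 0.0368). The brightest BCL2 probe set, 203685_at, read 400.1 and 477.2 on the DLEU1-downregulated arrays, against 326.6 and 274.6 on the control arrays. Both arrays of the downregulated clone were above both control arrays, with means of 438.6 ± 54.5 and 300.6 ± 36.8 (SD, n = 2 each). The log2 change was 0.52 with a 95% interval of 0.02 to 1.03 and did not pass after adjustment (adjusted p = 0.136, unadjusted p = 0.0433). After quantile normalization it was 0.19 (interval 0.00 to 0.39, adjusted p = 0.124).

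The other 3 BCL2 probe sets were dim, overlapped between the groups and did not pass on either scale. Probe set 207004_at, which the annotation ties to the shorter beta transcript, read 29.1 and 51.6 against 48.4 and 41.4. Probe set 207005_s_at, tied to the same transcript, read 27.1 and 17.3 against 21.8 and 15.5. Probe set 203684_s_at read 34.6 and 36.5 against 43.5 and 28.9. Their log2 changes were -0.14, 0.13 and 0.00 as deposited, and that of 207005_s_at turned to -0.04 with a common trimmed mean.

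BCL2L2 encodes BCL-W, a survival protein best known from mouse testis. Probe set 209311_at read 96.1 and 140.3 on the DLEU1-downregulated arrays, against 187.5 and 181.2 on the control arrays. Both arrays of the downregulated clone were lower, with means of 118.2 ± 31.3 and 184.4 ± 4.45 (SD, n = 2 each). The log2 change of -0.60 (95% interval -1.10 to -0.09) did not pass as deposited (adjusted p = 0.0779), but on quantile values the probe set fell by 0.86 (adjusted p = 0.00221), and it did so without each array in turn (-1.0 to -0.71). A second probe set, 1555140_a_at, read 11.2 and 13.1 against 12.9 and 13.8, with a log2 change of -0.06 (adjusted p = 0.923), or 0.01 on quantile values (0.987).

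BCL2L10 encodes BCL-B, a survival protein reported in human plasma cells and oocytes. Its probe set 221320_at read 18.5 and 26.6 on the DLEU1-downregulated arrays, against 31.8 and 8.6 on the control arrays, so the groups overlapped (log2 change 0.16, adjusted p = 0.752). The change turned to -0.32 without control replicate 2. The remaining probe set, 236491_at, read 2.2 and 1.5 against 6.4 and 6.7, and was the 1 member left out of the test as too dim. For scale, the median intensity of an array was 18.7 and 20 on the DLEU1-downregulated and 22.6 and 18.4 on the control arrays.

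**Figure D3:**
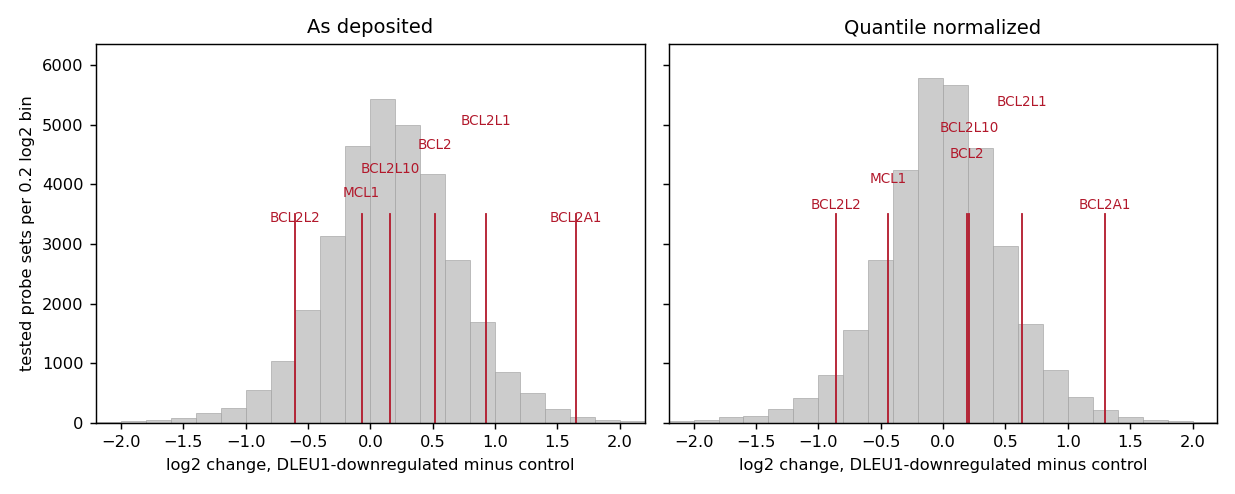
Number of tested probe sets by log2 change (bins of 0.2, DLEU1-downregulated minus control) on both scales, with vertical lines at the brightest probe set of each of the 6 genes. BCL2A1 lies far to the right at 1.65 as deposited and 1.30 after quantile normalization, while BCL2L2 lies to the left at -0.60 and -0.86.

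The balance between the members differed between the clones. Relative to the control mean, the log2 ratio of BCL2A1 to MCL1 200797_s_at, the MCL1 probe set with the smallest change, was 1.86 and 1.58 on the DLEU1-downregulated arrays, against 0.11 and -0.11 on the control arrays. Against MCL1 200798_x_at it was 2.64 and 2.54, against 0.13 and -0.13. For BCL2L1 212312_at over MCL1 200797_s_at the values were 1.12 and 0.89, against 0.08 and -0.08. BCL2A1 also changed more than BCL2 203685_at, by a log2 ratio of 1.19 and 1.06, against 0.17 and -0.17. Each of these shifts was larger than the gap between replicates, and after quantile normalization the same 4 shifts were 1.75, 2.60, 1.07 and 1.11. These ratios are built from the changes given above, so they are no further evidence, and no other pairs of genes were taken for comparison. They show unequal change and not how much protein of each kind was present.

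The death-promoting partners of the family were followed in 11 genes, of which 9 were tested in their brightest probe set. Of these 5 rose and 1 fell, against 20.3% and 5.74% of 13284 genes (26.1% either way), and 4 rose and 3 fell after quantile normalization, against 20.7% and 20.6% (41.3% either way). BID, which is cleaved by caspases and links death receptors to mitochondria, averaged 930 in the DLEU1-downregulated clone and 374.5 in control (log2 change 1.28, adjusted p = 1.05e-05), and its other 2 tested probe sets rose as well. BAD, which binds BCL2, BCL-XL and BCL-W, averaged 279.9 and 114.4 (1.18, adjusted p = 0.000106), and 1 of its other 2 tested probe sets rose. The BH3-only gene BCL2L11, which encodes BIM and binds every survival member, averaged 2679 and 1726 (0.64, adjusted p = 0.015) in the brightest of its probe sets, while 0 of the other 6 tested passed by limma. HRK, which binds BCL2 and BCL-XL, averaged 56.55 and 171.4 and fell by 1.40 (adjusted p = 1.67e-06), as did its other 3 tested probe sets. PMAIP1, or NOXA, the partner of MCL1 and BCL2A1, averaged 3296 and 3402 (-0.05, adjusted p = 0.904), but on quantile values fell by 0.42 (adjusted p = 0.000145). The count of 5 rises went to 2 without DLEU1-downregulated replicate 1, to 0 without DLEU1-downregulated replicate 2 and to 2 without control replicate 2. It was 3 with no filter on dim probe sets, 3 with eBayes without a trend and 0 with the replicate number as a block.

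Of 12 transcription factors known to act on the members, 4 rose and 1 fell as deposited, and 4 rose and 4 fell after quantile normalization. Over all genes 20.3% rose and 5.74% fell as deposited (26.1% either way), and 20.7% and 20.6% did on quantile values (41.3% either way). With 12 genes, the counts were not tested against these shares. Median centring gave 7 rises, a common trimmed mean 4 falls, and the replicate block 1 rise and 1 fall. The NF-kB subunits NFKB2 (274.9 in the DLEU1-downregulated clone and 97.5 in control, log2 change 1.39, adjusted p = 2.76e-06) and NFKB1 (1149 and 541.9, 1.06, adjusted p = 0.000254) rose in their brightest probe sets, while the other NFKB2 probe set tested did not pass. STAT3, which acts on MCL1 and BCL2L1, averaged 299.8 and 134.8 (1.06, adjusted p = 0.000615), and 2 of its other 3 tested probe sets rose. BCL6, the repressor of BCL2 and BCL2L1, averaged 1121 and 3105 (-1.44, adjusted p = 2.27e-09), and its other 2 tested probe sets fell. Of 9 NF-kB survival genes, 7 were tested, and limma called 6 higher and 0 lower (6 and 1 after quantile normalization, 4 and 0 with the replicate block). The list was chosen with earlier results of these data known, so this count is not independent of them. TRAF1, which carries signals of the tumour necrosis factor receptor family, averaged 555 and 154 (log2 change 1.75), and NFKBIA, the inhibitor that NF-kB induces, 3548 and 1098 (1.68). The other tested probe set of TRAF1 rose, and that of NFKBIA did not pass. TNFAIP3, the inhibitor A20, averaged 3160 and 1222 (1.37), with its other tested probe set also higher. CFLAR, a brake on caspase 8, averaged 808.1 and 303.4 (1.37) in a probe set with the suffix _x_at, and 2 of its other 12 tested probe sets rose while 10 did not pass. The 6 rises went to 5 without DLEU1-downregulated replicate 1 and to 2 without DLEU1-downregulated replicate 2, and the 4 rises of transcription factors went to 1 without either.

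Genes of MCL1 turnover include the ubiquitin ligases HUWE1, FBXW7, BTRC and MARCHF5 and the deubiquitinase USP9X. Of 8 such genes, each in its brightest probe set, limma called 0 as deposited in either direction, and 0 had an unadjusted p under 0.05. The probe sets of HUWE1 and TPT1, another gene of this list, carry the suffix _x_at and read nearly alike. They averaged 15900 and 16000 in the DLEU1-downregulated clone and 16510 and 16570 in control. Whether they report separate transcripts was not tested. As deposited 0 of the 4 other tested HUWE1 probe sets passed. For GSK3B, also of this list, 1 of the 2 other tested probe sets rose as deposited. After quantile normalization 4 had such a p and 2 passed after adjustment, where 20.6% of all genes fell and 41.3% were called either way (26.1% as deposited). These were MARCHF5, which fell by 0.68 (adjusted p = 0.000304), and USP9X, which fell by 0.30 (adjusted p = 0.00422). Of their other tested probe sets, 1 for MARCHF5 and 2 for USP9X, 0 passed as deposited. With a common trimmed mean 5 of the 8 fell, where 6281 of 32768 tested probe sets did. With median centring 1 rose, where 10420 probe sets did, so the count for this list depends on the scaling. Of 12 partners at mitochondria and the endoplasmic reticulum, 7 rose and 0 fell by limma, and 7 rose and 2 fell after quantile normalization, against 20.3% and 5.74% of all genes as deposited and 20.7% and 20.6% on quantile values. BAG1, a co-chaperone found through its binding to BCL2, averaged 2628 and 1394 (log2 change 0.91, adjusted p = 0.000338), VDAC1, a channel of the outer mitochondrial membrane, 7078 and 4825 (0.56, adjusted p = 0.00702), and BECN1, an autophagy protein held by BCL2, 1190 and 755.9 (0.65, adjusted p = 0.0339). Of their other tested probe sets, 2 of 2 for BAG1, 1 of 2 for VDAC1 and 0 of 1 for BECN1 rose by limma. With the replicate block 0 of the 12 partners rose and 0 fell. The count of 7 rises went to 0 without either DLEU1-downregulated array, to 1 without control replicate 2, to 1 with no filter on dim probe sets and to 2 with eBayes without a trend.

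In the brightest probe sets of 9 other BCL2-related genes, 1 rose and 2 fell, and 1 rose and 5 fell after quantile normalization, beside the same shares over all genes. For BNIP1, whose brightest did not pass as deposited, 1 of 2 other tested probe sets fell. Among the 9 genes, median centring gave 3 rises, a common trimmed mean 4 falls, and the replicate block 0 rises and 1 fall. BCL2L12 averaged 517.4 and 252.8 (1.03, adjusted p = 0.000904). The mitophagy receptors BNIP3L (479 and 1171, adjusted p = 8.84e-06) and BNIP3 (3.55 and 23.7, adjusted p = 0.00864) fell by 1.26 and 1.03. BNIP3 in the downregulated clone lay under the 16 added to each value, which shrinks its change. Its control values, 22.3 and 25.1, lay near the median intensity of their arrays (22.6 and 18.4). Whether they exceeded background was not tested. Of the 9 genes 1 fell, not 2, with a pseudocount of 1 and with a filter at the 60th percentile. There were 11 RNA-binding regulators of BCL2 and BCL2L1 transcripts. In their brightest probe sets 2 rose and 0 fell by limma (2 and 2 after quantile normalization), a share of rises near the 20.3% of all genes. Median centring gave 7 rises, and a common trimmed mean 1 rise and 1 fall. The replicate block gave 0 of either. The 2 that rose as deposited were ELAVL1, which stabilises BCL2 messenger RNA (3850 and 1930, 0.99, adjusted p = 1.8e-05), and NCL, nucleolin (9218 and 6855, 0.43, adjusted p = 0.032). Of the other tested probe sets, 2 of 3 for ELAVL1 and 0 of 1 for NCL rose by limma. In 2 further genes whose brightest probe set did not pass as deposited, 2 of 7 others fell for SRSF1 and 2 of 6 others rose for HNRNPD. Without DLEU1-downregulated replicate 1 these counts were 0 rises and 1 fall for the BCL2-related genes and 0 rises for the RNA-binding regulators, and without replicate 2 they were 0 for each.

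**Figure D4:**
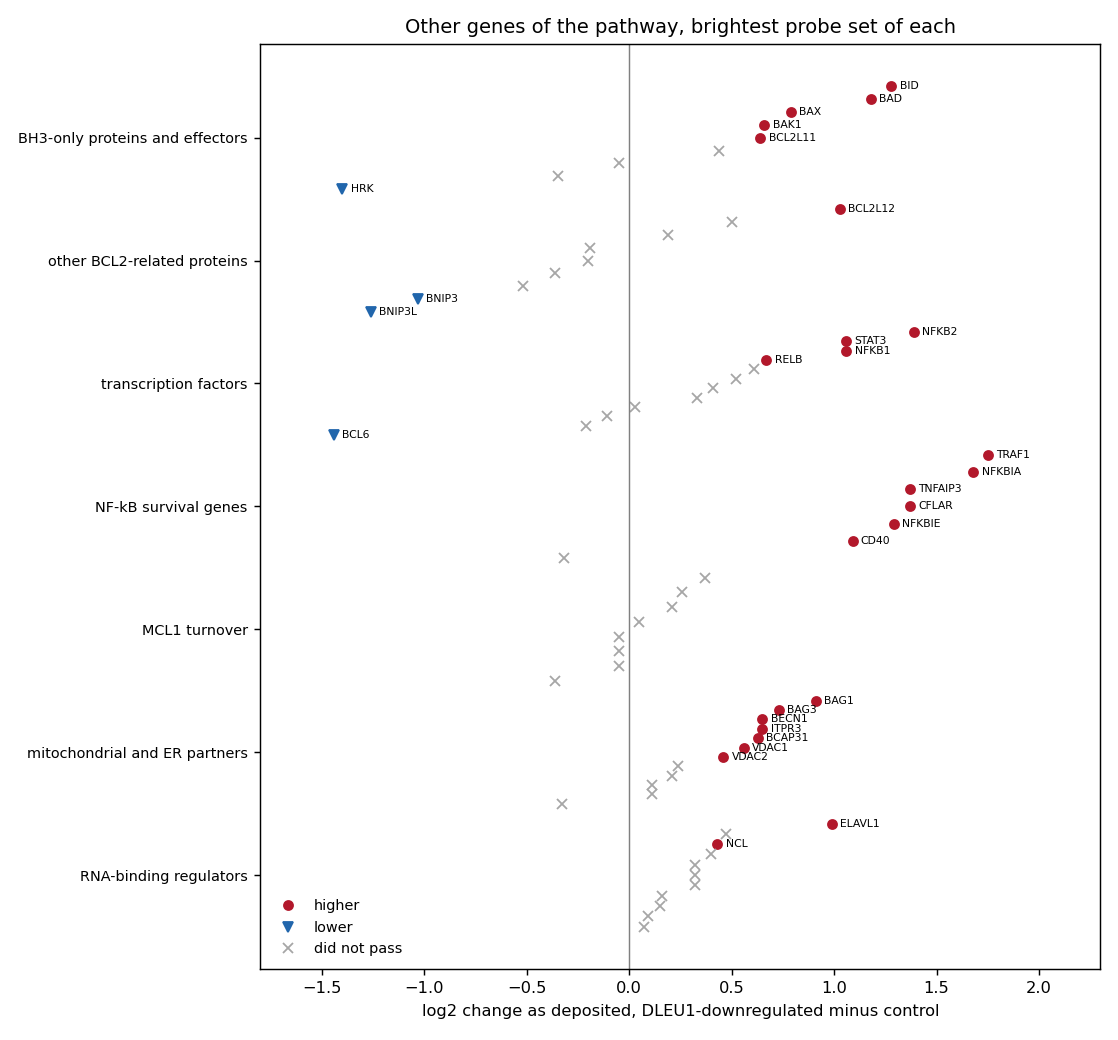
Log2 change as deposited (horizontal axis, DLEU1-downregulated minus control) of the brightest probe set of each other tested gene of the pathway, in 7 lists, with circles for genes that rose, triangles for those that fell and crosses for those that did not pass. The NF-kB survival genes that rose lie between 1.09 and 1.75, and the genes of MCL1 turnover hold 0 circles or triangles.

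Genes that lie beside a member did not all move with it. The counts below stand against the 20.3% of all genes that rose and the 5.74% that fell as deposited (20.7% and 20.6% on quantile values), and with 10 neighbours each they are not tested. The 10 tested genes nearest to BCL2L1 on chromosome 20 had a median log2 change of 0.01, with 0 called by limma on either scale, while the 375 tested genes of that chromosome had a median of 0.50 (0.29 after quantile normalization). Near BCL2A1 on chromosome 15, 5 of 10 rose. They were CTSH (1.1), RASGRF1 (1.0) and TMED3 (1.5) before it in order, and ABHD17C (1.85) and MESD (0.68) after it. The median of the 10 was 0.42 (0.12 after quantile normalization, where 5 rose and 1 fell). The 3 tested genes that follow BCL2A1 in order, ZFAND6, FAH and CTXND1, had changes of -0.25, -0.32 and -0.26 and did not pass as deposited, while ZFAND6 fell by 0.60 on quantile values. The neighbours of MCL1 on chromosome 1 had a median of 0.00, with 1 of 10 called, GOLPH3L, which fell by 0.86, and 3 that fell on quantile values. Those of BCL2 on chromosome 18 had a median of 0.07 with 4 rises (4 rises and 1 fall on quantile values), and those of BCL2L2 on chromosome 14 a median of -0.27 with 0 called by limma and 3 that fell after quantile normalization. Around BCL2L10, 3 rose and 2 fell (3 and 3 on quantile values).

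**Figure D5:**
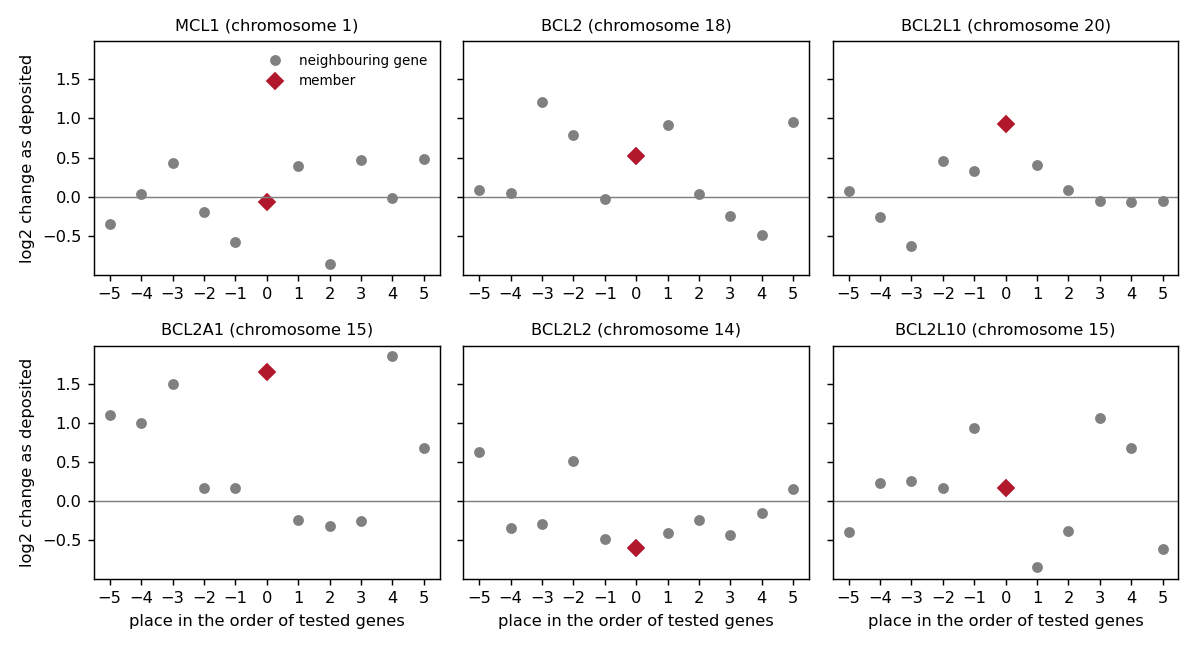
Log2 change as deposited (vertical axis, DLEU1-downregulated minus control) of each of the 6 genes (diamond) and of the 5 tested genes on either side (circles) in their order on the chromosome, each by its brightest probe set. The BCL2L1 diamond lies at 0.93, above its 10 neighbours, whose median is 0.01.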

How the data were processed

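The authors deposited 1 table of signal intensities on a linear scale, made with MAS5 per the submitters' processing notes; for the MAS5 version and target scale, the entry is "not given in the sources used here", and no detection calls were used. The number of arrays limits the precision. Members and gene lists were chosen with earlier results of these data known. Values became log2(value + 16). The 62 control probe sets were left out, as were 21845 with a mean log2 value below the 40th percentile, which left 32768. The 2 clones were compared with limma 3.58.1 (R 4.3.3), using lmFit with group as the only term and eBayes with a trend on intensity, p-values were adjusted by Benjamini-Hochberg over all tested probe sets, and 0.05 was the limit. On deposited values eBayes gave infinite prior degrees of freedom (6.75 on quantile values), so each probe set there takes its spread from the trend alone. The design had assumed a common MAS5 target, which the array means did not bear out. Of the probe sets, 41091 had 1 gene symbol, 1801 several and 11721 none (platform annotation); by gene identifier, 41037 were matched to current RefSeq symbols (GRCh38.p14), which also gave gene order. A gene was represented by its brightest tested probe set. Named beside the members were DLEU1, DLEU2, up to 4 list genes past the threshold with the smallest p, and the 2 genes nearest in pattern; PMAIP1, MARCHF5, USP9X and the named neighbours were chosen after their values were seen. The fit was tested on simulated data. Alternatives were other pseudocounts, filters, scalings and thresholds, no trend, a replicate block, no _x_at probe sets, probe set means and leaving out each array.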

Additional observations from a re-analysis of the deposited data

How the results depend on the processing

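The rise of BCL2A1 passed under all 20 alternatives (1.17 to 1.94). Averaging over probe sets could not alter its change, since the gene has 1, and leaving out _x_at probe sets did not touch it. Of 7293 changed probe sets (5620 higher, 1673 lower), 4395 (3329 and 1066) passed with no filter on dim probe sets, 4482 (3510 and 972) at an adjusted p under 0.01, 11072 (5488 lower) after quantile normalization, 11397 (6281 lower) with a common trimmed mean and 12902 (10420 higher) after median centring. The shares of rises among these calls were 77.1% as deposited, 50.4% after quantile normalization, 44.9% with a common trimmed mean and 80.8% after median centring. The median change of all probe sets was 0.16, 0.01, -0.09 and 0.21 on these scales. Leaving out each array in turn gave 1060 to 8463 (554 to 7477 higher, 480 to 1818 lower), and on quantile values 7005 to 10073 (3352 and 3507 higher without a DLEU1-downregulated array and up to 5308; 3653 and 3855 lower, and 4568 and 4765 without a control array). Of member probe sets 6 passed (3 higher, 3 lower), against 1 to 5 without 1 array (1 to 3 higher, 0 to 3 lower), 6 lower after quantile normalization (4 to 6 lower without 1 array), and 10 with 7 lower with a common trimmed mean. BCL2L2 209311_at passed with a filter at the 60th percentile (-0.60), after quantile normalization (-0.86, and -1.0 to -0.71 without 1 array, -0.74 without control replicate 2), with a common trimmed mean (-0.89) and after median centring (-0.55). MCL1 200797_s_at passed after quantile normalization (-0.44, and -0.56 to -0.33 without 1 array, -0.49 without control replicate 2) and with a common trimmed mean (-0.40), and turned to 0.13 without DLEU1-downregulated replicate 1 and to 0.11 without control replicate 1 (-0.28 at the lowest). BCL2 203685_at passed after median centring (0.57). The call of BCL2L1 212312_at was lost without 3 of the 4 arrays (0.67 to 1.20 over all 4) and that of DLEU1 without either DLEU1-downregulated array (-1.24 to -0.83 over all 4). BCL2L10 221320_at ran from -0.32 to 0.64 without 1 array, and turned to -0.23 on quantile values without control replicate 2, with 0.63 as the highest there. The cause of these shifts was not tested. With the replicate block, 1901 probe sets passed (1252 higher, 649 lower), 2 of them members (0 lower by limma). BCL2L1 212312_at (0.93, adjusted p = 0.192) and DLEU1 (-1.04, 0.162) were lost there, and BCL2A1 passed. The block fit leaves 1 residual degree of freedom. Same-numbered arrays deviated with a correlation of -0.05 (-0.01 on quantile values). Whether they shared a batch that acts on some probe sets was not tested. Dim probe sets changed sign near 0: BCL2 203684_s_at to 0.00 with a pseudocount of 1, 0.04 after median centring, 0.02 without DLEU1-downregulated replicate 1, 0.20 without control replicate 1 (-0.21 at the lowest) and 0.05 when that array was left out of quantile values; BCL2 207004_at to 0.15 (-0.43 at the lowest) and BCL2 207005_s_at to -0.05 (0.32 at the highest) without DLEU1-downregulated replicate 1, the second also to -0.01 on quantile values and to -0.04 with a common trimmed mean; BCL2L2 1555140_a_at to 0.01, 0.05 and 0.10 on quantile values; and BCL2L1 231228_at to -0.01 on quantile values without control replicate 1.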

Other observations

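A probe set that names BCL2L2 together with PABPN1, a poly(A)-binding protein gene next to it, and their read-through transcript was not counted as a member. This probe set, 201544_x_at, read 4158.8 and 4679.8 on the DLEU1-downregulated arrays, against 3146.4 and 2738.9 on the control arrays, and rose by 0.59 (limma adjusted p = 0.0128), or by 0.21 after quantile normalization (adjusted p = 0.00684). The BCL2L2 probe set 209311_at ran the other way, and so did the PABPN1 probe set 213046_at, with a log2 change of -0.41 as deposited (adjusted p = 0.257). A second PABPN1 probe set that also names the read-through, 201545_s_at, was not used here. Which of these transcripts the shared probe set reports was not tested.

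Among 13284 genes, those whose pattern over the 4 arrays lay closest to BCL2A1, by the root mean square difference of centred log2 values, were POM121C, a nuclear pore gene (0.042), and POLR3G, an RNA polymerase III subunit (0.052). The closest to BCL2L1 were XPNPEP3 (0.007) and ANKRD13D (0.020), and to BCL2 CLP1 (0.006) and SMYD2 (0.010). Closest to MCL1 in its brightest probe set were LILRA6 (0.016) and THAP1 (0.017), to BCL2L2 NPAS2 (0.009) and OAS3 (0.032), and to BCL2L10 SLC25A2 and ATF2 (0.036 each). The points compared are 4 arrays of 2 clones, and every pair of genes shares them.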
